A study of Caenorhabditis elegans with 2 samples.

Results

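The genes described here are the cuticle collagen genes of Caenorhabditis elegans other than those of the circumferential furrows, examined for binding of the transcription factor ELT-3. They were chosen by a rule on symbols, as every protein-coding gene named col- followed by a number except col-99, together with 13 collagen genes named for a mutant phenotype (dpy-4, dpy-5, dpy-13, dpy-14, dpy-17, rol-6, rol-8, sqt-1, sqt-2, sqt-3, bli-1, bli-2 and lon-3). The rule was set with earlier results of these data known. The rule gave 168 genes of the 19973 nuclear protein-coding genes in Ensembl release 115 on WBcel235, the assembly also called ce11.

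Binding was measured by ChIP-seq in whole L1 larvae, the stage that hatches from the egg, in 2 biological replicates that form 1 group. Both came from strain OP75, which carries the unc-119(ed3) mutation and the transgene wgIs75. That transgene expresses ELT-3 fused at its C terminus to GFP and FLAG, so the bound protein is the tagged one. The larvae were of mixed sex, and whole animals mix epidermis with every other tissue. There is no second genotype, stage or tissue, so nothing below compares conditions.

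Cuticle collagens are the main structural proteins of the worm's exoskeleton. Epidermal cells secrete them into a new cuticle before each molt, and each gene is transcribed in its own phase of the molting cycle. The proteins form triple helices built on Gly-X-Y repeats and are trimmed and crosslinked outside the cell. ELT-3 is a GATA factor of the larval epidermis, and GATA factors bind sites of the form WGATAR, in which W is A or T and R is A or G.

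The annotated proteins were collagens almost throughout. Translated from the annotated coding sequence, the proteins had a median length of 304 residues and a median of 51 Gly-X-Y triplets, counted in runs of at least 3. Of the 168 proteins, 166 had at least 40 triplets. The annotated product of col-55 had 20. That of col-17 had none, so its annotated coding sequence does not read as a collagen, although its symbol keeps it in the set. The genes are compact, with a median length of 1209 bp, against 2027 bp over all protein-coding genes.

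Peaks came from 4 lists on ce11. The smallest, filtered by the irreproducible discovery rate (IDR) and called the IDR set here, held 1014 peaks. Replicate 1 alone gave 17087 peaks, replicate 2 alone gave 7079, and the pooled list held 30000. These 3 are labelled as peaks together with background. Because they are so long, each was also shortened to its 1014 peaks of highest signal. The number of reads behind any peak is unknown, and the signal values are the authors' own on a scale that differs between lists, so peaks are set side by side by rank within a list. The lists are not independent of each other. Of the 7079 peaks of replicate 2, 2424 stood in the pooled list with the same start and end, against 0 of the 17087 peaks of replicate 1. Of the 39 replicate 2 summits in collagen windows, 17 were at the same base in the pooled list, so the pooled list and replicate 2 are not separate evidence there. No IDR peak had the start and end of a peak in any other list, although the records derive the set from them. A gene is said to have a summit when the highest point of a peak fell between 1500 bp before and 500 bp after its annotated 5′ end. Intervals on shares are 95% Wilson intervals and cover counting error over genes or peaks only.

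In the IDR set, 9 of the 168 collagen genes had a summit (5.36%, interval 2.84 to 9.87%), against 2.95% of all protein-coding genes. They were col-3, col-10, col-62, col-91, col-117, col-145, col-147, col-166 and col-167. None of the 13 genes named for a phenotype was among them. The 9 genes shared 8 peaks, since col-3 and col-117 have a common one. In the other lists cut to equal length the counts were close to those of genes in general. The pooled list gave 6 collagen genes (3.57%), against 3.41% of all genes. Replicate 1 gave 6 (3.57%), against 3.38%, and replicate 2 gave 8 (4.76%), against 3.44%. Both replicates at once gave 4 (2.38%), against 2.3%. A share near that of all genes is no result about collagen genes. The interval of the IDR share also includes the value for all genes, and no test was run between the collagen genes and the rest.

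The whole lists are more lenient and put a summit near many genes of any kind. In the pooled list 96 of the 168 collagen genes had one (57.1%), against 52.1% of all genes. Replicate 1 gave 69 (41.1%), against 33.9%, replicate 2 gave 36 (21.4%), against 17.9%, and both replicates gave 25 (14.9%), against 13.6%. At the other end, 59 of the 168 had no summit in any of the 4 lists (35.1%), against 42.9% of all genes, and 12 had one in replicate 1 alone (7.14%), against 4.79%. All 9 genes with an IDR summit also had a summit in the pooled list and in each replicate.

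**Figure D1:**
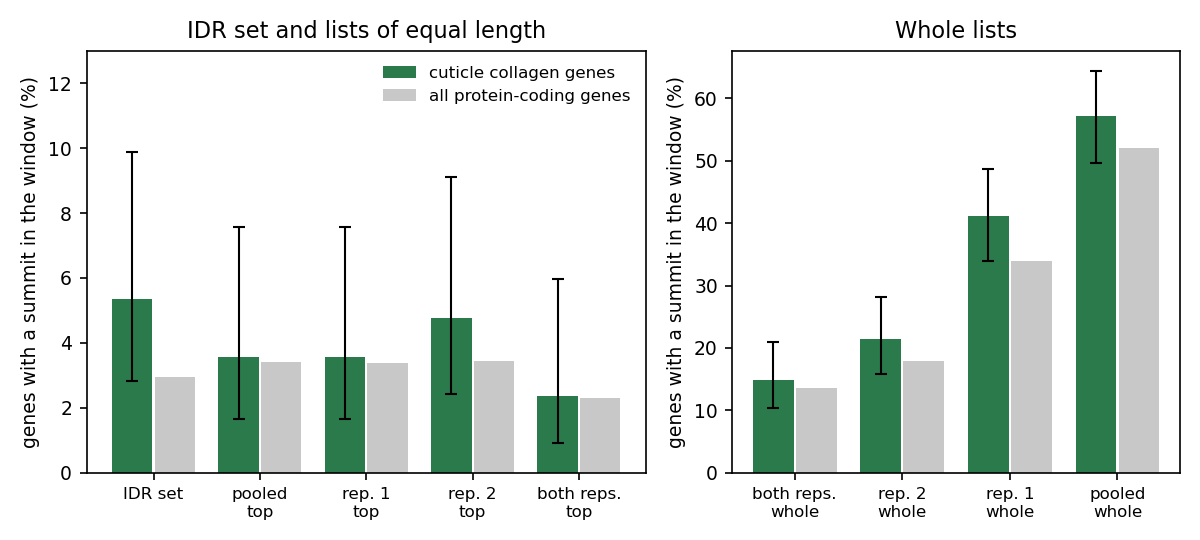
Share of cuticle collagen genes (green, 168 genes, bars with 95% Wilson intervals) and of all protein-coding genes (grey, 19973 genes) with a summit in the promoter window, in percent. Left, the IDR set and the 1014 highest-signal peaks of each other list. Right, the whole lists. The IDR set has the widest gap relative to its level, with 5.36% against 2.95%, and its interval includes the grey value.

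The 8 IDR peaks were of middling strength within their set. Their ranks by signal ran from 114 to 914 of 1014, with a median of 517. All 8 summits lay upstream of the 5′ end, at a median of 234 bp. Of the IDR summits in other windows 90.9% were upstream, and the median for other genes was 280.5 bp. Of the 8 summits at collagen genes, 7 were intergenic, and the one at col-91 lay in an intron of ncr-2, a gene that surrounds col-91. Sequence around 6 of the 8 summits is given here because the GATA sites discussed further on are in 4 of them and absent from those of col-167 and col-91. Each run covers 101 bases of WBcel235 centred on the IDR summit, 5′ to 3′ along the strand of the first gene named, with WGATAR matches on either strand in capitals.
col-10 (chrV:9165420-9165520, minus strand): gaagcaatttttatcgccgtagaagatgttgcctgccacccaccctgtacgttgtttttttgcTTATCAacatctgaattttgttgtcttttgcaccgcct
col-117 and col-3 (chrIV:8824426-8824526, minus strand): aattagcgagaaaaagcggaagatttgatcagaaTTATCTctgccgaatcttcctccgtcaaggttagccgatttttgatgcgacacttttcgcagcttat
col-167 (chrX:6323251-6323351, plus strand): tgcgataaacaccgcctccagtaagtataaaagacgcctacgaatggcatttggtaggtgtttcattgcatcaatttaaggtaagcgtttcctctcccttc
col-145 (chrV:9164118-9164218, minus strand): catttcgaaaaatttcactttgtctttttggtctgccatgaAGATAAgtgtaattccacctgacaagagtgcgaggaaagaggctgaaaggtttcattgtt
col-91 (chrIII:8263671-8263771, minus strand): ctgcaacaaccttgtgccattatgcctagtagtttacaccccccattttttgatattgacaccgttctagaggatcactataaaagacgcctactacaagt
col-147 (chrV:9633456-9633556, minus strand): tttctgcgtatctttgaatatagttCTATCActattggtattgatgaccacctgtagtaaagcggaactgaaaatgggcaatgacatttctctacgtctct

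The strongest of these peaks was at col-62, an adult-stage collagen gene. Its IDR peak (I, 7404754 to 7405009, signal 95.4, rank 114) had its summit 508 bp upstream of the 5′ end. In replicate 1 the overlapping peak ranked 316 with a signal of 35.9, in replicate 2 it ranked 179 with a signal of 69.1, and in the pooled list it ranked 196. Those summits lay within 6 bp of the IDR summit. The same summit is also in the window of C15A11.7, whose 5′ end is nearer, so the peak cannot be assigned to col-62 by position alone. Its sequence is not shown. A weaker summit stood 901 bp upstream in replicate 1 (rank 3853), and another 1037 bp upstream in replicate 2 (rank 1045) and in the pooled list (rank 3141).

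Next came col-10, whose IDR peak (V, 9165342 to 9165597, signal 83.3, rank 182) had its summit 163 bp upstream and no other gene in reach. The overlapping peak ranked 2026 in replicate 1, with a signal of 16.5, and 406 in replicate 2, with a signal of 54.6. A separate summit about 1.2 kb upstream, in an intron of B0222.11, ranked 970 in replicate 1 and 1316 in replicate 2. Both replicates thus held both sites, and they ranked them in opposite order. For that reason col-10 stands among the 1014 strongest peaks of each replicate through different sites.

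The neighbouring col-145 and col-144 lie downstream of col-10 on the same strand, their 5′ ends 2302 and then 2363 bp apart. At col-145 the replicates again held a pair of summits. The nearer lay 292 bp upstream in replicate 1 (rank 1091) and 396 bp upstream in replicate 2 (rank 1276). The farther lay 1226 bp upstream in replicate 1 (rank 805) and 1177 bp upstream in replicate 2 (rank 1516). Only the farther was in the IDR set (V, 9164040 to 9164295, signal 59.2, rank 551), with its summit 1163 bp upstream of col-145 and 124 bp past the 3′ end of col-10. The gene col-144, a collagen gene reported as an ELT-3 target in ageing adults, had no IDR summit. Its summits nonetheless ranked 1016 in replicate 1, 1066 in replicate 2 and 1137 in the pooled list, all within 201 bp of the 5′ end. Each of these 3 genes therefore had a summit within 400 bp of its 5′ end in both replicates.

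**Figure D2:**
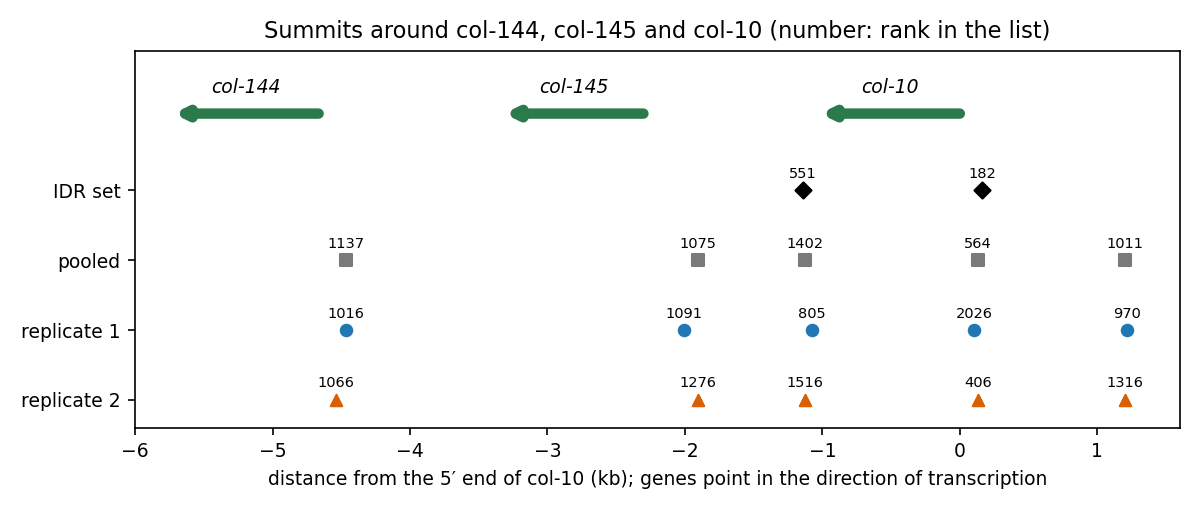
Summits around col-144, col-145 and col-10, by distance from the 5′ end of col-10 in kb, in the IDR set, the pooled list and each replicate. The number over a point is its rank by signal within that list, and green arrows are genes in the direction of transcription. The same 5 sites recur in both replicates and in the pooled list, and the IDR set holds those ranked 182 and 551.

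The divergent genes col-117 and col-3 are 588 bp apart at their 5′ ends and encode proteins that are 100% identical over the shorter. One IDR peak lay between them (IV, 8824348 to 8824603, signal 62.3, rank 481), 281 bp upstream of col-117 and 307 bp upstream of col-3. Replicate 1 ranked the overlapping peak 1054 with a signal of 22.5, and replicate 2 ranked it 380 with a signal of 56.1. No other gene had this summit in its window, and the list cannot tell which of the pair it belongs to.

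On X, col-167 was among the 1014 strongest peaks of both replicates. Its IDR peak (X, 6323173 to 6323428, signal 59.5, rank 541) was 187 bp upstream, with ranks of 615 (signal 28.6) in replicate 1 and 753 (signal 42.9) in replicate 2 for the overlapping peak. The related gene col-166, 43472 bp away, was the least well supported. Its IDR peak (signal 61.8, rank 493) overlapped no peak of replicate 2 and none of the pooled list. In replicate 1 the overlapping peak (rank 1298) had its summit 245 bp from the IDR summit. The summit of replicate 2 in this window was 156 bp upstream of col-166, against 528 bp for the IDR summit. The call at col-166 thus rests on a position that neither the pooled list nor replicate 2 holds.

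The last members of the set were col-91 and col-147. At col-91 the IDR peak (III, 8263593 to 8263848, signal 57.7, rank 594) was 57 bp upstream, with ranks of 3215 in replicate 1 and 1816 in replicate 2 for the overlapping peaks. The strongest overlapping peak had its summit 58 bp from the IDR summit in replicate 1 and 146 bp from it in replicate 2. A weaker overlapping peak of replicate 2 (rank 2534) had its summit on the other side of the IDR summit, 110 bp upstream of the 5′ end. At col-147 the IDR peak (V, 9633378 to 9633633, signal 48.7, rank 914) was 168 bp upstream. The ranks there were 2074 in replicate 1 and 624 in replicate 2, with the summit 208 bp away in replicate 1 and 9 bp away in replicate 2. Both genes thus ranked well below the top 1014 in replicate 1.

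Some collagen genes without an IDR summit ranked as high in the other lists as those with one. The gene col-38, from the list of stage-linked collagens, ranked 352 in replicate 1, 542 in replicate 2 and 387 in the pooled list. Its summit 442 bp upstream in replicate 1 is also in the window of rpl-5, a ribosomal protein gene whose 5′ end is nearer. With col-10, col-62 and col-167 it made up the 4 collagen genes found among the strongest 1014 peaks of the pooled list and of both replicates. The gene col-103 ranked 1104 in replicate 1 and 942 in replicate 2, and col-93 ranked 759 in replicate 1 and 1654 in replicate 2. The col-93 summit lay in an intron of dhc-4. In all, 16 genes without an IDR summit had a summit in both replicates and in the pooled list, with best pooled ranks from 387 at col-38 to 10562 at col-180. With the 9 genes that had an IDR summit they are the 25 with a summit in both replicates (14.9%), against 13.6% of all genes. This counts genes and not sites. At col-180 the summit lay 173 bp upstream in replicate 1 and 1464 bp upstream in replicate 2.

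Further genes of this kind ranked lower. The gene col-72 ranked 2113 in replicate 1 and 2090 in replicate 2, with its summits downstream of the 5′ end, and col-42, also with summits downstream, ranked 1175 in replicate 1 and 3183 in replicate 2. At col-71 replicate 2 ranked a summit 253 bp upstream at 1302, while replicate 1 ranked one 240 bp upstream at 13509. The replicates thus placed this site, which is also in the window of Y49F6B.2, far apart in their lists. Some summits were shared by neighbouring genes, since col-159 and col-160 had a common summit that ranked 1531 in replicate 1 and 6880 in replicate 2. The pair col-183 and col-184 had another, at ranks 2297 in replicate 1 and 4737 in replicate 2, which lay 220 bp upstream of col-184 and 1471 bp upstream of col-183 in replicate 1. By chromosome, the 9 genes with an IDR summit were 3 of 33 on V, 2 of 42 on IV, 2 of 27 on X, 1 of 23 on I, 1 of 13 on III and 0 of 30 on II. Over all genes the share with an IDR summit was 2.1% on V, 2.71% on IV, 3.44% on X, 4.24% on I, 3.41% on III and 2.61% on II, and counts this small allow no comparison by chromosome.

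**Figure D3:**
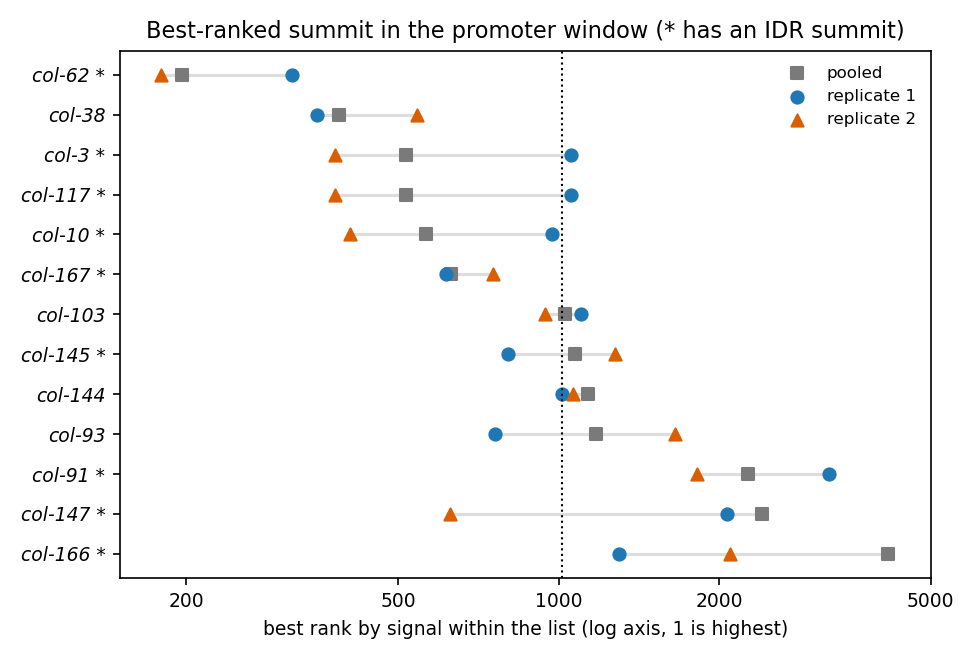
Best rank by signal of a summit in the promoter window of 13 collagen genes, in the pooled list (squares), replicate 1 (circles) and replicate 2 (triangles), on a log axis where 1 is the highest signal. An asterisk marks genes with an IDR summit, and the dotted line is rank 1014. The genes col-62, col-38, col-10 and col-167 are left of the line in all 3 lists, while col-91, col-144 and col-166 are right of it in all 3.

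The window itself is 75% upstream of the 5′ end, so an upstream share of that size says nothing of the summits. In replicate 2, 33 of the 39 summits in collagen windows were upstream (84.6%), against 82.1% in other windows, with a median of 259 bp, against 257 bp for other genes. In replicate 1, 60 of 80 were upstream (75%), against 75.4% in other windows, with a median of 364.5 bp, against 287 bp for other genes. Of the 80 summits of replicate 1, 24 (30%, interval 21.1 to 40.8%) overlapped a peak of replicate 2 by at least 1 bp. Over all promoter windows this share was 31.4%. From the side of replicate 2, whose list is shorter, 25 of 39 (64.1%, interval 48.4 to 77.3%) overlapped a peak of replicate 1, against 65.0% over all promoter windows. Among the 1014 peaks of highest signal, 3 of 6 replicate 1 summits at collagen genes overlapped one of replicate 2, against 66.0% over all promoter windows, and 3 of 7 replicate 2 summits overlapped one of replicate 1, against 65.1%. None of these differences was tested.

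**Figure D4:**
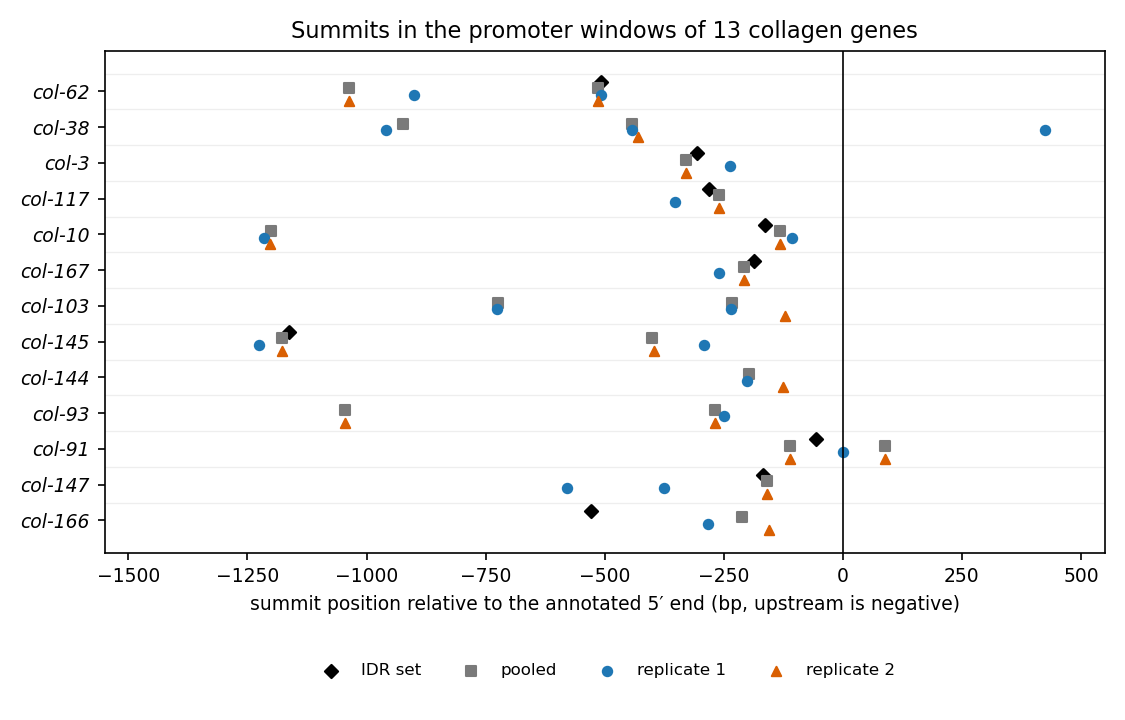
Position of each summit relative to the annotated 5′ end (bp, upstream is negative) in the windows of 13 collagen genes, for the IDR set (diamonds), the pooled list (squares), replicate 1 (circles) and replicate 2 (triangles). Summits of the 4 lists lie close together at col-3, col-117 and col-167, while at col-166 the IDR summit, 528 bp upstream, stands apart from those of the other lists.

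The 13 genes named for a phenotype include the best studied cuticle collagens. Mutations in them make the worm dumpy (dpy), rolling (rol), short and squat (sqt), blistered (bli) or long (lon). No IDR summit was among them, and 7 had a pooled summit. With IDR summits at 2.95% and pooled summits at 52.1% of all genes, neither count sets 13 genes apart. Of these, 6 (bli-2, dpy-5, dpy-13, dpy-17, rol-6 and sqt-1) had no summit in any list, against 42.9% of all genes. None had a summit in both replicates, against 13.6% of all genes. These counts do not set the 13 genes apart either. In replicate 2, lon-3 ranked 3728 with a summit 1062 bp upstream, and rol-8 ranked 5067 with a summit 992 bp upstream. In replicate 1, sqt-3 ranked 8399, bli-1 ranked 9615 and dpy-14 ranked 15722. The genes dpy-4 and sqt-2 appeared only in the pooled list, at ranks 18109 and 15009. BLI-1 and BLI-2 are strut collagens of the adult cuticle, and SQT-3 and DPY-17 act together in the larval cuticle. The nearest IDR summit was 3128 bp from the 5′ end of dpy-5 and between 7516 and 143380 bp away for the others. Among all 168 genes, 126 had their nearest IDR summit over 10 kb from the 5′ end (75%), against 84.3% of all protein-coding genes.

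Of 15 collagen genes linked to a stage or often used as stage reporters, 2 had an IDR summit (col-10 and col-62) and 5 had a summit in both replicates (col-10, col-38, col-62, col-63 and col-144). Over all genes these shares were 2.95% and 13.6%, and with 15 genes the counts are a description only. The adult collagen genes col-7 and col-19 had no summit in any list, nor had col-40, a dauer collagen gene, or col-17, col-34 and col-49. For col-2, also a dauer collagen gene, replicate 2 ranked a summit 406 bp upstream at 3039, while replicate 1 had none. The near-identical pair col-12 and col-13 ranked no higher than 23756 in the pooled list, and col-13 also had a summit 93 bp upstream in replicate 1, at rank 8573. At col-63 the ranks were 7995 in replicate 1 and 3044 in replicate 2, and at col-14 a lone summit ranked 15258 in replicate 1.

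Genes with near-identical copies made up 6 of the 9 genes with an IDR summit. At a protein identity of at least 95% over the shorter protein, 27 of the 168 genes had another such member, in 10 families. Of these 27 genes, 6 had an IDR summit (22.2%), against 3 of the 141 without a near-identical copy (2.13%), a difference that was not tested. Over all protein-coding genes the share was 2.95%. The 141 still include close relatives with an IDR summit, namely col-147 (94.1% identical to col-146) and col-145 (92.2% identical to col-10). In all 4 families with an IDR summit, at least 1 copy had none. The proteins of col-62 and col-7 are 99.1% identical, yet col-7 had no summit in any list. Of the 6 related genes on X, only col-166 and col-167 had an IDR summit. The gene col-168, whose protein is 99% identical to that of col-167, ranked 2547 in replicate 2 and had no summit in replicate 1. In replicate 1, col-169 ranked 13102 and col-180 ranked 12499. In replicate 2, col-180 ranked 6389 and col-169 had no summit. For col-170 the only rank was 25862, in the pooled list. In the col-92, col-93 and col-94 family on III, col-92 had no summit in any list. The gene col-94 ranked 1375 in replicate 2 and 2811 in the pooled list, and had no summit in replicate 1. Of the 53 genes with another member within 10 kb, 7 held an IDR summit (13.2%), against 2 of the 115 others (1.74%). This difference was not tested either, and the share among clustered or duplicated genes of other kinds was not measured. These groups overlap, and the shared peak of col-3 and col-117 counts for both genes in each.

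Near-identical genes can make read placement uncertain, and how reads with several matches were treated is not given in the sources used here. Each of the 8 IDR peak sequences was therefore searched against the whole assembly with BLAST. At an expectation value of at most 1e-05, none had a match other than itself. The promoters of copies without an IDR summit were not searched for matches of their own, so the search says nothing of read placement there.

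GATA sites were common at these summits. WGATAR lay within 50 bp of 6 of the 8 IDR summits at collagen genes (75%, interval 40.9 to 92.9%), in windows 500 bp to either side of them 2 of 16 times (12.5%), and at 219 of the 459 IDR summits in other promoters (47.7%, interval 43.2 to 52.3%). The intervals of the collagen and other summits overlap. All 6 sites were still found within 25 bp. In the capitals of the sequences above, the site reads TGATAA on one strand at col-10, AGATAA at col-145 and at col-117 and col-3, and TGATAG at col-147. TGATAA by itself was thus at 1 of the 8 summits (12.5%), against 148 of 459 other promoter summits (32.2%). The IDR summits of col-167 and col-91 had no WGATAR within 50 bp. In the other lists every summit of col-91 had one, as did the replicate 1 summit of col-167, but not its pooled or replicate 2 summit. Within 100 bp all 8 IDR summits had one, against 65.1% of the others.

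Over the whole lists the shares were lower. WGATAR was within 50 bp of 16 of 39 summits at collagen genes in replicate 2 (41.0%, interval 27.1 to 56.6%), against 31.7% at other promoters. In replicate 1 it was at 24 of 80 (30%), against 26.7%, and in the pooled list at 35 of 118 (29.7%), against 25.8%. The windows 500 bp away held it in 15.4%, 18.8% and 16.5% of cases in these 3 lists.

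**Figure D5:**
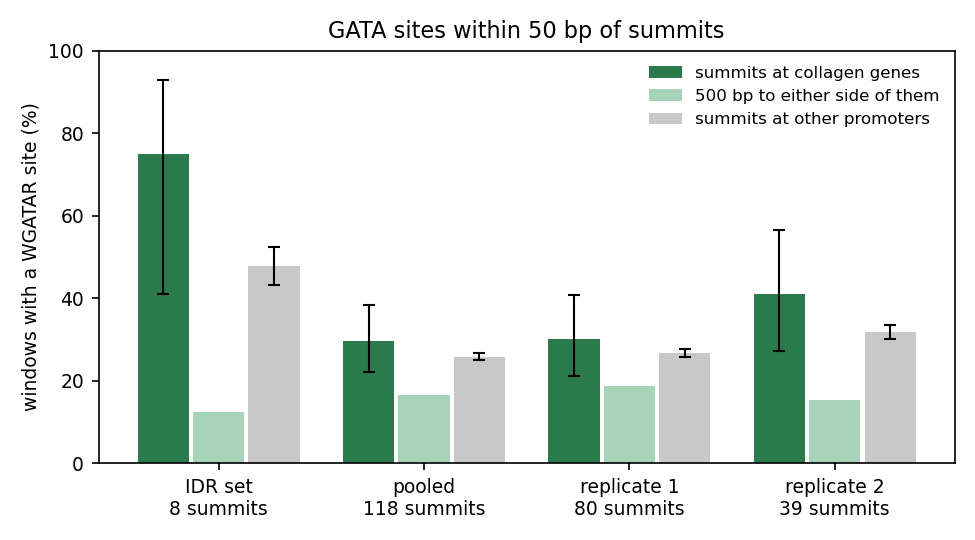
Share of windows with a WGATAR site within 50 bp of the summit, in percent, for summits at collagen genes (dark green), for windows 500 bp to either side of them (light green) and for summits at other promoters (grey). Bars on the dark green and grey columns are 95% Wilson intervals. Collagen summits exceed their flanks in every list, by the most in the IDR set (75% against 12.5%, from 8 summits).

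GATA sites were also common in collagen promoters taken with or without a summit, and in the promoters of genes in general. In the stretch from 250 bp before to 50 bp after the 5′ end, 106 of the 168 collagen promoters held WGATAR (63.1%, interval 55.6 to 70.0%), against 54.5% of all genes. TGATAA was in 29.8% of them, against 30.2% of all genes. In the whole window of 1500 bp before to 500 bp after, WGATAR was in 167 of the 168 (99.4%), against 98.5% of all genes. Of the 9 genes with an IDR summit, 7 held WGATAR in the shorter stretch. Of the 59 genes with no summit in any list 33 did, beside 54.5% of all genes. Such a match is a string of letters, and whether any of them is occupied was not measured.

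Of 44 other genes of the cuticle and its regulation, 5 had an IDR summit (11.4%), against 2.95% of all protein-coding genes, a difference that was not tested. None of the 6 furrow collagen genes (dpy-2, dpy-3, dpy-7, dpy-8, dpy-9 and dpy-10) had one, and neither did the 4 basement membrane and transmembrane collagen genes. Of 15 genes for collagen processing and crosslinking, 1 did, namely mlt-7, which encodes a peroxidase (signal 48.6, rank 917). Of 6 cuticlin genes 1 did, namely cut-2 (signal 48.9, rank 905). Of 13 genes for regulators of cuticle collagens, 3 did, with blmp-1 at rank 188, sma-3 at rank 828 and nhr-23 at rank 1009. These lists are short and were chosen with earlier results of these data known, and their counts are given as a description only.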

How the data were processed

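ELT-3 ChIP-seq peaks of 2 replicates were analysed. Per the deposited records, the replicate and pooled lists (peaks and background) came from aligned ChIP reads and an aligned control, and the IDR set from those lists. Tools and thresholds for alignment and peak calling were not given in the sources used here. Each peak has a signal value and a q-value score deposited by the authors. The authors' deposited signal was used for ranks within a list, and the score entered no result. The 4 ce10 lists were not used. Read depth is unknown.

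Genes came from Ensembl release 115 and sequence from RefSeq's copy of WBcel235. Summits were assigned to every gene whose window held them. Coordinates are 1-based. No test across genes was run. The members and lists were chosen with earlier results of these data known. Genes named were those with an IDR summit, the 13 phenotype-named, the 15 stage-linked, the 10 best by pooled rank and by worse replicate rank, and genes sharing a summit. Outside it, col-42, col-55, col-71, col-72, col-183, col-184 and the further members of near-identical families were named once their values were known, as was the shared stretch of sequence. Proteins were translated from the longest coding sequence and aligned globally (BLOSUM62). Peaks were searched with BLAST 2.17.0. Python 3.11.15, numpy 2.4.6, scipy 1.17.1, pandas 2.3.3, biopython 1.88 and matplotlib 3.10.9 were used. Window, overlap and motif code was tested on simulated data. Alternatives covered the peak set, windows, transcript starts, nearest gene, motif, overlap and each replicate. The sequence at the col-166 summit is not reported here.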

Additional observations from a re-analysis of the deposited data

How the results depend on the processing

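The count of 9 collagen genes with an IDR summit stayed within 1.5 times under most settings tried. It was 6 to 8 with the strongest 1014 peaks of a single replicate, and 6 with those of the pooled list. These lists held partly other genes, with col-38 in all of them, col-93 in replicate 1 and col-103 in replicate 2. The count was 8 with IDR peaks overlapped in both replicates, and 6 with a window of 500 and 250 bp or with nearest 5′ ends only. It fell to 5 in the 507 IDR peaks of highest signal, and to 3 without the genes of at least 95% identity to another. A window of 3000 and 1000 bp added col-115, and any transcript start added col-159, each giving 10. With IDR summits within 100 bp of a summit of each replicate, chosen after seeing the data, 7 remained, without col-147 and col-166. The whole-list counts rested on list length, with 6, 6, 8 and 4 genes at equal length in the pooled list, replicate 1, replicate 2 and both replicates. In the window of 500 and 250 bp they were 51 in the pooled list and 34 in replicate 1. The GATA share at IDR summits was 100% within 100 bp and 12.5% for TGATAA. In the strongest 1014 peaks of a single replicate it was 50% in replicate 1 (3 of 6 summits) and 57.1% in replicate 2 (4 of 7). Over the whole replicate lists it was 30% in replicate 1 and 41.0% in replicate 2. The share of promoters with a site was 29.8% for TGATAA and 99.4% in the long window. The median summit distance in the strongest 1014 peaks of a single replicate was 474.5 bp in replicate 1 and 208 bp in replicate 2. Over the whole replicate lists it was 364.5 bp and 259 bp. Of 47 values under alternative settings, 34 moved little and 13 moved by more. None reversed, but counts of genes have no direction and could not reverse. No paired analysis was possible because there is 1 group of replicates. With 8 IDR peaks, shares have wide intervals.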

Other observations

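The IDR summits of col-167 and col-91 shared a stretch of 16 bases, tataaaagacgcctac, found by comparing summit sequences after they were seen. They were the pair without WGATAR within 50 bp of the IDR summit. In the other lists every summit at col-91 and the replicate 1 summit at col-167 did have one. The sequence at the col-62 summit was not among those compared. Among the others, the next longest stretch shared by any pair was 9 bases. In the promoters from 250 bp upstream to 50 bp downstream of all 19973 genes, on either strand, the 16 bases occurred at these 2 genes alone. The inner letters AAGACGCC occurred in no further collagen promoter, and in 0.25% of all promoters. Since the stretch was taken from these genes, its presence there is no comparison with other promoters. The genes lie on X and III, and their proteins are not near-identical.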
